A study of Lupinus albus with 12 samples.

Results

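The UGT85A glucosyltransferases of white lupin (Lupinus albus) were described by their transcript levels in roots and leaves grown with and without phosphorus. White lupin is a legume whose low-phosphorus root systems grow dense tufts of short rootlets, known as proteoid or cluster roots. Members were the transcript sequences whose deposited annotation gives a best Arabidopsis hit with a UGT85A symbol. Of 125535 sequences in the deposited table, 16 carried such a symbol, and 15 of these reached 1 RPKM (reads scaled to sequence length and to the size of the library) in at least 3 of the 12 libraries. That filter kept 87081 sequences in all. The best hit was AtUGT85A2 for 9 of the 15, AtUGT85A3 for 3, and AtUGT85A5, AtUGT85A7 and UGT85A1 for 1 each. The sixteenth sequence, annotated as AtUGT85A4, was left out by the filter. No threshold on a change was used to pick members, but the family came to notice because 2 of them, LAGI01_55919 and LAGI01_73516, were already known to be lower in phosphorus-deficient roots in these data.

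UDP-glycosyltransferases move a sugar, usually glucose from UDP-glucose, onto small acceptors such as hormones, flavonoids and toxic intermediates, which changes their solubility, storage and activity. In Arabidopsis, UGT85A1 glucosylates the cytokinin trans-zeatin on its side-chain oxygen, giving an O-glucoside that serves as a storage form from which beta-glucosidases can release the hormone. Relatives in the wider UGT85 family glucosylate hydroxynitriles in the making of cyanogenic glucosides in sorghum, and steviol in stevia. The substrates of most UGT85A enzymes, in lupin and in Arabidopsis, are less well known. The annotation's pathway column placed all members under cytokinin O-glucoside biosynthesis, which is a transfer by homology and not a measurement of activity.

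The 12 libraries came from plants of the variety Ultra harvested 14 days after emergence, in 4 groups of 3 biological replicates. Sufficient phosphorus meant a solution with 1 mM calcium phosphate, for which the deficient plants were given calcium sulfate, also at 1 mM. The groups were roots of sufficient plants, proteoid roots of deficient plants, and leaves of each. Root type and phosphorus supply thus change together in the root comparison and cannot be told apart. In these bulk samples, fewer cells of a type and less RNA per cell cannot be told apart either.

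The values are taken to be RPKM, since neither the labels nor the file headers name the unit, and no read counts came with them, so depth is unknown. Summed values per library ran from 802814.9 to 1178058.3. The tissue labels fitted the leaf markers as a sum. The 39 sequences of leaf photosynthesis genes summed to between 23034.4 and 110223.1 RPKM in leaves and to between 105.6 and 176.6 RPKM in roots. A list of 105 root marker sequences set the tissues less far apart, at 499.5 to 1023.7 RPKM in roots and 169.7 to 459.1 RPKM in leaves. One library stands apart, replicate 3 of the phosphorus-deficient leaves, in which the 20 largest sequences held 70.91% of the summed RPKM, against 4.77% to 17.98% in the other 11 libraries. Its median over the sequences tested was 0.9 RPKM, against 2.1 to 2.7 RPKM elsewhere, so leaf changes are also given without it. Genes of the circadian clock differed between libraries too. The mean log2 level of 35 morning sequences (LHY and CCA1) minus that of 40 evening sequences (TOC1, GI and APRR5) was 3.05, 1.97 and 1.45 in leaves short of phosphorus, against 1.38, -2.37 and -2.28 in the sufficient ones. This clock difference was 0.68, -0.84 and -1.11 in deficient roots, against -0.38, -2.21 and -2.37 in the sufficient ones. It was higher in the deficient than in the sufficient library of the same replicate number in each tissue.

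The 15 kept sequences fell into 6 that were higher in roots and 9 that were higher in leaves, and no sequence reached 1 RPKM in both tissues. The highest value of any of the 6 root sequences in a leaf library was 0.8 RPKM, and the highest value of any of the 9 leaf sequences in a root library was 0.6 RPKM. The leaf sequences LAGI01_18045, LAGI01_24634, LAGI01_31024, LAGI01_59803 and LAGI01_62371 (5 of the 9) were listed at 0 in all 6 root libraries. The symbols did not follow this division: AtUGT85A2 and AtUGT85A3 hits occurred in both tissues, while the single AtUGT85A5, AtUGT85A7 and UGT85A1 hits were leaf sequences. The unkept AtUGT85A4 sequence, LAGI01_86494, had 2.5, 0.5 and 1.2 RPKM in sufficient roots and 0.6, 0.4 and 0.9 RPKM in deficient roots. It was listed at 0 in 5 leaf libraries and at 0.2 RPKM in the other. Just inside the filter were LAGI01_61315 and LAGI01_62371, each at 1 RPKM or more in 4 libraries.

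**Figure D1:**
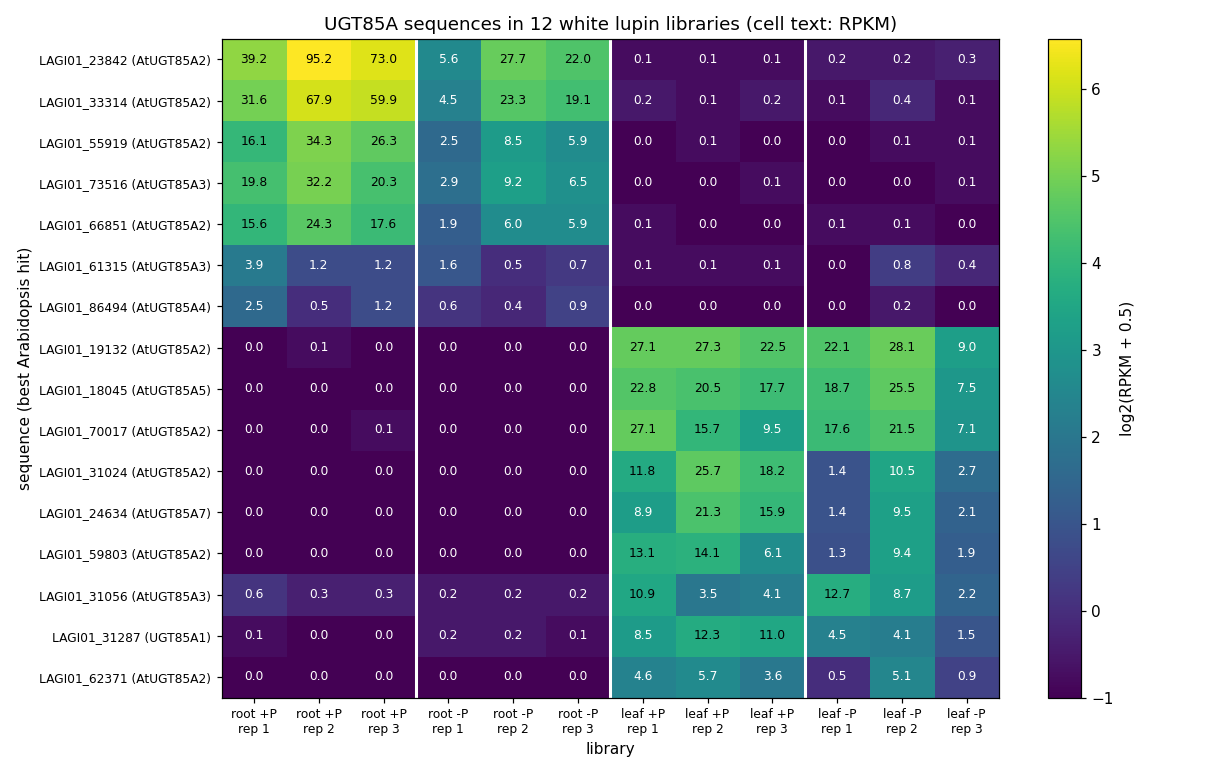
Level of all 16 UGT85A sequences (lines) in the 12 libraries (columns), with the RPKM written in each cell and the colour giving log2(RPKM + 0.5). The 7 sequences at the top are near 0 in leaves and the 9 at the bottom are near 0 in roots.

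In limma's test on log2(RPKM + 0.5) with Benjamini-Hochberg adjustment over all sequences, all 15 members differed between roots and leaves with sufficient phosphorus, 6 higher in roots and 9 lower. Of all sequences tested, 42% passed in this comparison (24.1% higher and 17.8% lower in roots). With deficient phosphorus 14 members passed, 5 higher in roots and 9 lower, against 42.2% of all sequences (29% higher and 13.2% lower in roots). With median-of-ratios scaling, the split over all sequences in the deficient comparison was 22903 higher and 19666 lower, against 25274 and 11489, and the members' split was the same 5 and 9. A sequence that passed the filter only through the tissue in which it was high was apt to differ between tissues, so these counts describe the members and support nothing further. The exception was LAGI01_61315, an AtUGT85A3 hit of low level, at 1.6, 0.5 and 0.7 RPKM in deficient roots and 0, 0.8 and 0.4 RPKM in deficient leaves (log2 difference 0.70, SE 0.456, limma adjusted p = 0.233).

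Summed over all 16 sequences, the family stood at 129.4, 256.0 and 199.9 RPKM in sufficient roots and at 20.0, 76.0 and 61.3 RPKM in deficient roots. In leaves the sum was 135.3, 146.5 and 109.1 RPKM with sufficient phosphorus and 80.6, 124.2 and 35.9 RPKM with deficient phosphorus. The root groups did not overlap, and the leaf groups did. Nearly all of each sum came from the sequences of that tissue: in sufficient roots the 9 leaf sequences together held 0.7, 0.4 and 0.4 RPKM.

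In roots, 5 sequences of similar behaviour were lower in the deficient proteoid roots, and these carried almost the whole family signal there. The most abundant, LAGI01_23842 (AtUGT85A2), had 39.2, 95.2 and 73 RPKM in sufficient roots and 5.6, 27.7 and 22.0 RPKM in deficient roots. Every deficient library lay below every sufficient one, with means of 69.1 ± 28.2 and 18.4 ± 11.5 RPKM (SD, n = 3). The log2 change was -2.06 (SE 0.49), which did not pass after adjustment (limma adjusted p = 0.129).

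LAGI01_33314 (AtUGT85A2) followed closely, at 31.6, 67.9 and 59.9 RPKM in sufficient roots and 4.5, 23.3 and 19.1 RPKM in deficient roots. The groups did not overlap, with means of 53.1 ± 19.1 and 15.6 ± 9.87 RPKM (SD, n = 3). Its log2 change of -1.94 (SE 0.497) did not pass either (limma adjusted p = 0.189).

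LAGI01_66851 (AtUGT85A2) had 15.6, 24.3 and 17.6 RPKM in sufficient roots and 1.9, 6.0 and 5.9 RPKM in deficient roots. The highest deficient library lay well below the lowest sufficient one, with means of 19.2 ± 4.56 and 4.6 ± 2.34 RPKM (SD, n = 3). It fell by 2.06 on the log2 scale (SE 0.379, limma adjusted p = 0.024).

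The 2 sequences through which the family came to notice had already passed the threshold in earlier results, and are given as a description that supports nothing. LAGI01_55919 (AtUGT85A2) had 16.1, 34.3 and 26.3 RPKM in sufficient roots and 2.5, 8.5 and 5.9 RPKM in deficient roots, a log2 change of -2.16 (SE 0.398). LAGI01_73516, the AtUGT85A3 hit with the highest level in roots, had 19.8, 32.2 and 20.3 RPKM in sufficient roots and 2.9, 9.2 and 6.5 RPKM in deficient roots, a log2 change of -1.97 (SE 0.377). Neither pair of groups overlapped. The sixth root sequence, LAGI01_61315 (AtUGT85A3), had 3.9, 1.2 and 1.2 RPKM with sufficient and 1.6, 0.5 and 0.7 RPKM with deficient phosphorus. Its groups overlapped, and its log2 change was -0.78 (SE 0.456, limma adjusted p = 1).

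**Figure D2:**
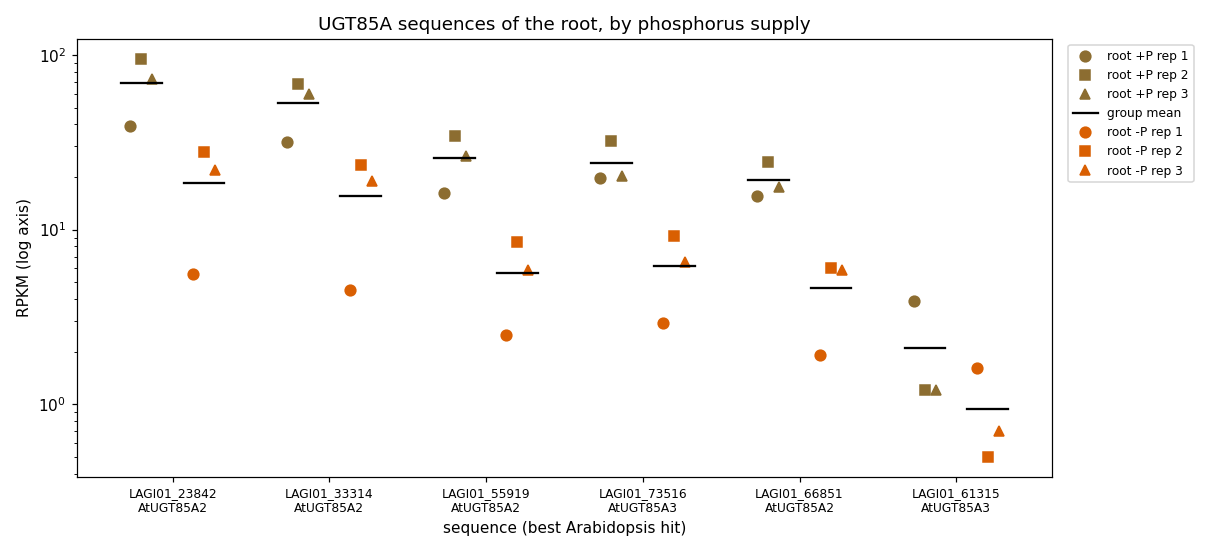
RPKM (log axis) of the 6 root UGT85A sequences in the 3 sufficient (+P) and 3 deficient (-P) root libraries, with points for libraries, a shape for each replicate number and lines for group means. In 5 of the 6, every deficient library lies below every sufficient one, and deficient replicate 1 is the lowest.

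Over the 15 members, 3 were lower in deficient roots and none was higher at an adjusted p below 0.05, counting LAGI01_66851 and the 2 sequences through which the family was noticed, and 5 had an unadjusted p below 0.05, all lower (2.23% of all sequences). Of all sequences tested, 0.279% passed in this comparison, and 0.0345% passed as lower. The members' median log2 change was -0.09, against 0.0 over all sequences. Groups without overlap, deficient lower, were found for 6 of the 15 members, and for 4.39% of all sequences. The sixth is LAGI01_31056, a leaf sequence, at 0.6, 0.3 and 0.3 RPKM in sufficient roots and 0.2 RPKM in each deficient one. Because the family was noticed through this comparison, nothing is read from these counts. With the replicate number as a block within each tissue, the count was 5: the 3 above and LAGI01_23842 and LAGI01_33314. Under the same block, 165 of all sequences passed as lower in roots, against 30 without it.

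The size of the root call count rested on single libraries, while the direction of the 6 root sequences did not. No member passed without replicate 2 or replicate 3 of the sufficient roots, or without replicate 1 of the deficient roots. Without replicate 3 of the deficient roots, 1 passed. Of all sequences, 11, 19, 31 and 13 passed as lower in these settings, in that order, against 30 with all libraries. Without deficient replicate 1, which was the lowest library in all 5 sequences, the log2 change of LAGI01_66851 was -1.58 (SE 0.344, limma adjusted p = 0.0743, against 0.00705 to 0.312 over its alternatives). That of LAGI01_23842 was then -1.38 and that of LAGI01_33314 -1.24, against -2.06 and -1.94 with all libraries. Those of LAGI01_55919 and LAGI01_73516 were -1.72 and -1.54, and that of LAGI01_61315 was -1.09.

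The 5 root sequences kept nearly the same proportions to each other while their sum changed. Their summed level was 122.3, 253.9 and 197.1 RPKM in sufficient roots and 17.4, 74.7 and 59.4 RPKM in deficient roots. LAGI01_23842 made up 32.1% to 37.5% of that sum in sufficient libraries and 32.2% to 37.1% in deficient ones. LAGI01_33314 made up 25.8% to 30.4% and 25.9% to 32.2%. The shares of LAGI01_55919 (13.2% to 13.5% and 9.93% to 14.4%), LAGI01_73516 (10.3% to 16.2% and 10.9% to 16.7%) and LAGI01_66851 (8.93% to 12.8% and 8.03% to 10.9%) overlapped between supplies as well. Pearson correlations of log2(RPKM + 0.5) between pairs of the 5 ran from 0.96 to 1.0 over the 6 root libraries, which share the supply groups and the replicate numbers. The 5 were grouped after these values were seen, so the shares and correlations describe them and carry no test. How reads that match several sequences were divided is not given in the sources used here, so near-identical copies among these sequences could share reads, and the proportions are uncertain for that reason.

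The ratio of the sufficient to the deficient library differed more between replicate numbers than between sequences. It was 6.44 to 8.21 over the 5 sequences in replicate 1, 2.91 to 4.05 in replicate 2 and 2.98 to 4.46 in replicate 3. The ratios of group means were 3.40 to 4.54. Replicate 1 was sequenced 1 library per lane without barcodes, and replicates 2 and 3 were barcoded with 2 libraries per lane. In the barcoded libraries alone, the direction was the same for the 6 root sequences and 1 of them passed. Root calls over all sequences were then 442, with 205 lower, against 243 and 30 with all libraries.

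In order of level, LAGI01_23842 was above LAGI01_33314, and LAGI01_33314 above LAGI01_55919, in 6 of 6 root libraries, although the ranges of these neighbours overlapped across the 3 sufficient libraries. LAGI01_55919 and LAGI01_73516 could not be ordered, with the former higher in 2 of 6 libraries. LAGI01_73516 was above LAGI01_66851 in 6 of 6 libraries, again with overlapping ranges. The step from LAGI01_66851 down to LAGI01_61315 was the single one between neighbours of the kept root sequences at which the sufficient values did not overlap.

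In leaves, 9 sequences shared the family's signal more evenly, and none passed the test between supplies. The leaf values separated by eye into 4 sequences that were low in deficient replicates 1 and 3, a further 3 whose levels differed little between supplies, and 2 others. This division was made after the values were seen and carries no test. For reference, the median leaf change over all sequences was -0.24 on the log2 scale.

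The most abundant leaf sequence with sufficient phosphorus was LAGI01_19132 (AtUGT85A2), at 27.1, 27.3 and 22.5 RPKM with sufficient and 22.1, 28.1 and 9.0 RPKM with deficient phosphorus. LAGI01_18045, the AtUGT85A5 hit, had 22.8, 20.5 and 17.7 RPKM with sufficient and 18.7, 25.5 and 7.5 RPKM with deficient phosphorus. LAGI01_70017 (AtUGT85A2) had 27.1, 15.7 and 9.5 RPKM with sufficient and 17.6, 21.5 and 7.1 RPKM with deficient phosphorus. In each of the 3, the groups overlapped and the lowest of the 6 libraries was deficient replicate 3, the library that stands apart. Their log2 changes were -0.51 (SE 0.379), -0.39 (SE 0.382) and -0.19 (SE 0.422) in that order, with limma adjusted p-values of 0.774, 0.834 and 0.953. Without deficient replicate 3 the changes were -0.03, 0.11 and 0.28, so the direction for LAGI01_18045 and LAGI01_70017 depended on that library.

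LAGI01_31024 (AtUGT85A2) had 11.8, 25.7 and 18.2 RPKM in sufficient leaves and 1.4, 10.5 and 2.7 RPKM in deficient leaves. Every deficient library lay below every sufficient one, with means of 18.6 ± 6.96 and 4.87 ± 4.92 RPKM (SD, n = 3). The log2 change was -2.16 (SE 0.486, limma adjusted p = 0.146).

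LAGI01_24634, the AtUGT85A7 hit, had 8.9, 21.3 and 15.9 RPKM in sufficient leaves and 1.4, 9.5 and 2.1 RPKM in deficient leaves. Deficient replicate 2 lay just above sufficient replicate 1, so the groups overlapped, with means of 15.4 ± 6.22 and 4.33 ± 4.49 RPKM (SD, n = 3). The log2 change was -2.03 (SE 0.488, limma adjusted p = 0.192).

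LAGI01_59803 (AtUGT85A2) had 13.1, 14.1 and 6.1 RPKM in sufficient leaves and 1.3, 9.4 and 1.9 RPKM in deficient leaves (log2 change -1.65, SE 0.499, limma adjusted p = 0.332). LAGI01_62371 (AtUGT85A2), the lowest of the leaf sequences with sufficient phosphorus, had 4.6, 5.7 and 3.6 RPKM there and 0.5, 5.1 and 0.9 RPKM with deficient phosphorus (log2 change -1.35, SE 0.484, limma adjusted p = 0.465). In both, deficient replicates 1 and 3 lay below every sufficient library and deficient replicate 2 lay within their range.

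Summed over LAGI01_31024, LAGI01_24634, LAGI01_59803 and LAGI01_62371, the level was 38.4, 66.8 and 43.8 RPKM in sufficient leaves and 4.6, 34.5 and 7.6 RPKM in deficient leaves. Over LAGI01_19132, LAGI01_18045 and LAGI01_70017 it was 77.0, 63.5 and 49.7 RPKM and 58.4, 75.1 and 23.6 RPKM. Of the summed RPKM of the 9 leaf sequences, the 4 made up 28.5%, 45.7% and 40.3% with sufficient phosphorus, and 5.74%, 28.2% and 21.8% without it. The 3 made up 57.1%, 43.5% and 45.8% of it in the sufficient libraries, and in the deficient ones 72.8%, 61.4% and 67.6%. For the 4, the highest deficient share, 28.2%, lay next to the lowest sufficient one, 28.5%. Pearson correlations over the 6 leaf libraries were 0.9 to 1.0 within the 4, 0.8 to 0.99 within the 3, and 0.19 to 0.67 between them. These shares and correlations describe sequences that were grouped on the same values, and show no shift of their own.

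LAGI01_31287, the UGT85A1 hit, had 8.5, 12.3 and 11 RPKM in sufficient leaves and 4.5, 4.1 and 1.5 RPKM in deficient leaves. Its groups did not overlap, and deficient replicate 1 was the highest of its deficient libraries, where it was the lowest for the 4 above, with means of 10.6 ± 1.93 and 3.37 ± 1.63 RPKM (SD, n = 3). The log2 change was -1.62 (SE 0.359, limma adjusted p = 0.141). UGT85A1 is the member whose Arabidopsis enzyme is known to act on trans-zeatin, and the annotation classed this sequence, alone among the 16, under cytokinin synthesis and degradation.

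Without deficient replicate 3, the log2 changes were -1.99 for LAGI01_31024, -1.78 for LAGI01_24634, -1.37 for LAGI01_59803, -1.10 for LAGI01_62371 and -1.20 for LAGI01_31287, when the median over all sequences was 0.06. Without deficient replicate 2, in which the first 4 of these were highest among the deficient libraries, their changes were -2.88, -2.75, -2.40 and -2.10, and that of LAGI01_31287 was -1.80.

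LAGI01_31056, the AtUGT85A3 hit of the leaf, had 10.9, 3.5 and 4.1 RPKM with sufficient and 12.7, 8.7 and 2.2 RPKM with deficient phosphorus. The groups overlapped widely, and the log2 change was 0.21 (SE 0.502, limma adjusted p = 0.956). Without deficient replicate 3 it was 0.89, and without deficient replicate 1 it was -0.25.

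**Figure D3:**
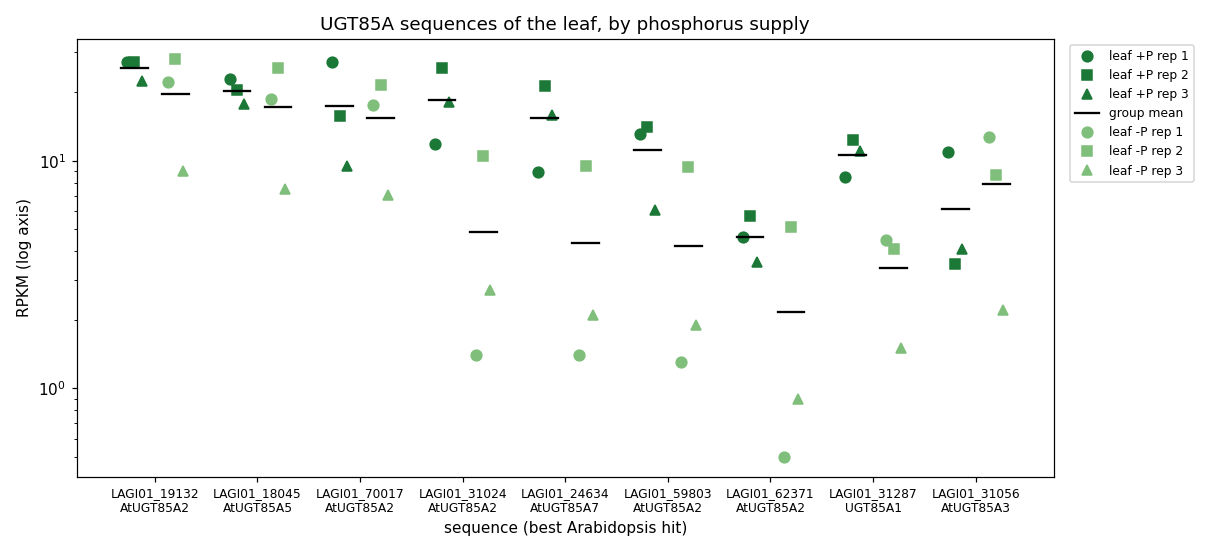
RPKM (log axis) of the 9 leaf UGT85A sequences in the 3 sufficient (+P) and 3 deficient (-P) leaf libraries, with points for libraries, a shape for each replicate number and lines for group means. LAGI01_31024 and LAGI01_31287 are the 2 in which every deficient library lies below every sufficient one.

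None of the 15 members passed in leaves (limma, adjusted p below 0.05), and 5 had an unadjusted p below 0.05, all of them lower in deficient leaves, as were 6.81% of all sequences. Of all sequences tested, 0.0276% passed in leaves, and 0.0172% passed as lower. The members' median log2 change was -0.19, against -0.24 over all sequences. Groups without overlap, deficient lower, occurred in 2 leaf sequences and in 4.45% of all sequences. With the replicate number as a block within each tissue, 2 members passed as lower, LAGI01_31024 and LAGI01_24634, and so did 199 of all sequences, against 15 without the block. LAGI01_31024 then had an adjusted p of 0.0228 and LAGI01_24634 one of 0.029, where the alternatives ranged from 0.011 to 0.912 and from 0.0119 to 0.912. Single libraries moved the leaf count as well: 3 members passed as lower without sufficient replicate 1, 1 without deficient replicate 1 and 2 without deficient replicate 2. The calls over all sequences moved in the same settings, to 1309, 470 and 5 lower. Without deficient replicate 3 no sequence of the table passed.

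By level in sufficient leaves, LAGI01_19132 was above LAGI01_18045 in 6 of 6 leaf libraries. All neighbours in the order of the 9 leaf sequences had overlapping ranges across the 3 sufficient libraries, so that order is not fixed by them. In deficient leaves LAGI01_31056 was the fourth most abundant by mean, at 7.87 ± 5.30 RPKM (SD, n = 3), and in sufficient leaves the eighth, at 6.17 ± 4.11 RPKM.

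**Figure D4:**
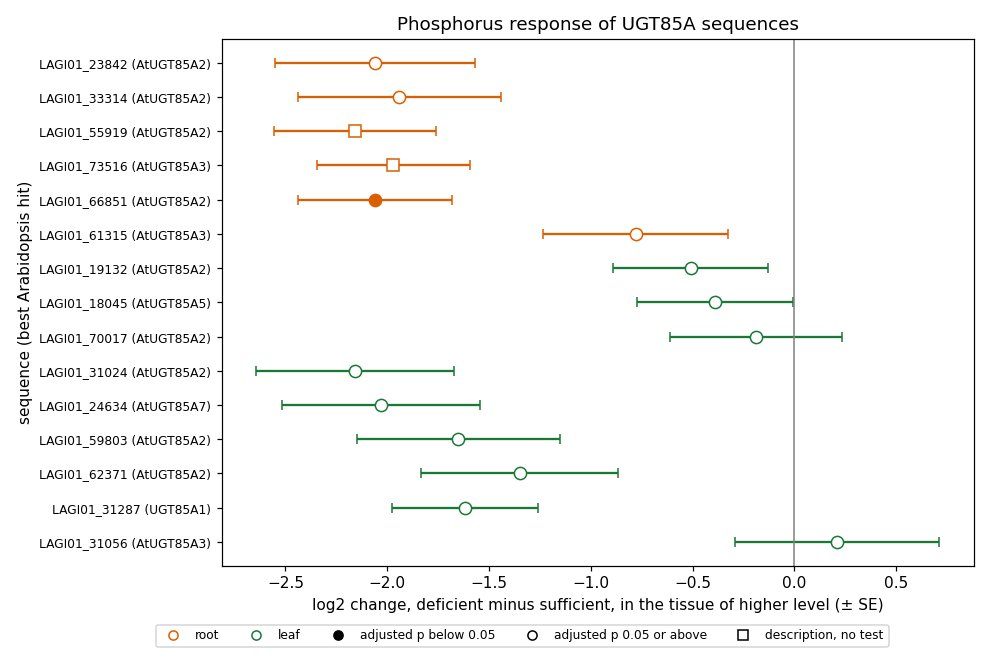
Log2 change, deficient minus sufficient, of the 15 kept UGT85A sequences in the tissue where each is higher, with bars for the limma standard error filled points for an adjusted p below 0.05, and squares for the 2 sequences given without a call. The 5 abundant root sequences lie between -2.16 and -1.94, and the 9 leaf sequences spread from -2.16 to 0.21.

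Whether the response differed between tissues was tested as the root change minus the leaf change. No member passed in limma's test, and 0.0597% of all sequences did. An unadjusted p below 0.05 was found for 9 members and for 5.93% of all sequences. The lowest adjusted p was that of LAGI01_66851 (difference -2.15, SE 0.536, limma adjusted p = 0.354). For LAGI01_31287 the difference was 1.94 (SE 0.508, limma adjusted p = 0.412). Because each sequence was near 0 in its other tissue, where this scale shows little of any change, the difference largely repeats the change in the tissue of higher level. The comparison cannot show whether root and leaf respond alike at the same level of a gene.

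The clock difference was set beside the family's level. Among roots, deficient replicate 1 had the highest clock difference, at 0.68, and the lowest sum of the 6 root sequences, at 19.0 RPKM. Sufficient replicates 2 and 3 had the lowest clock differences, at -2.21 and -2.37, and the highest sums, at 255.1 and 198.3 RPKM. The remaining root libraries did not keep this order. Sufficient replicate 1, at -0.38, had 126.2 RPKM, and deficient replicates 2 and 3, at -0.84 and -1.11, had 75.2 and 60.1 RPKM. None of the 35 morning or 40 evening sequences passed between supplies in either tissue. With the clock difference as a covariate, an analysis added after the data were seen, the log2 changes in roots were -1.75 for LAGI01_23842, -1.66 for LAGI01_33314, -1.91 for LAGI01_55919, -1.78 for LAGI01_73516 and -1.96 for LAGI01_66851. These are smaller than without it, by less than 1 SE each, and 2 members passed. Of all sequences, 34 then passed as lower in roots, against 30 without the covariate.

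In leaves the sum of the 9 leaf sequences did not keep the order of the clock difference. Among deficient leaves, replicate 1, with the highest clock difference of 3.05, had 80.2 RPKM. Replicate 3, with the lowest of 1.45, had the lowest sum, 34.9 RPKM, and replicate 2, at 1.97, had 122.4 RPKM. The 4 sequences low in deficient replicates 1 and 3 came nearer to that order. They summed to 66.8 RPKM at the lowest clock difference, -2.37, and to 4.6 RPKM at the highest, 3.05. At 1.45 and 1.97 they had 7.6 and 34.5 RPKM, out of that order. These 4 were grouped on the same values, so this carries no test. With the same covariate all 9 leaf changes were below 0, when the median over all sequences was -0.43. None of the 9 passed, and no other sequence passed in leaves in this setting. The changes were -1.48 for LAGI01_31024, -1.31 for LAGI01_24634, -1.72 for LAGI01_59803, -1.18 for LAGI01_62371 and -1.70 for LAGI01_31287. Without the covariate these were -2.16, -2.03, -1.65, -1.35 and -1.62 in that order. The others were -0.72 for LAGI01_19132, -0.70 for LAGI01_18045, -0.93 for LAGI01_70017 and -1.06 for LAGI01_31056, against -0.51, -0.39, -0.19 and 0.21 without it. Clock differences did not overlap between supplies in leaves (1.45 or more with deficient, 1.38 or less with sufficient phosphorus), so the covariate and supply cannot be cleanly separated there.

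**Figure D5:**
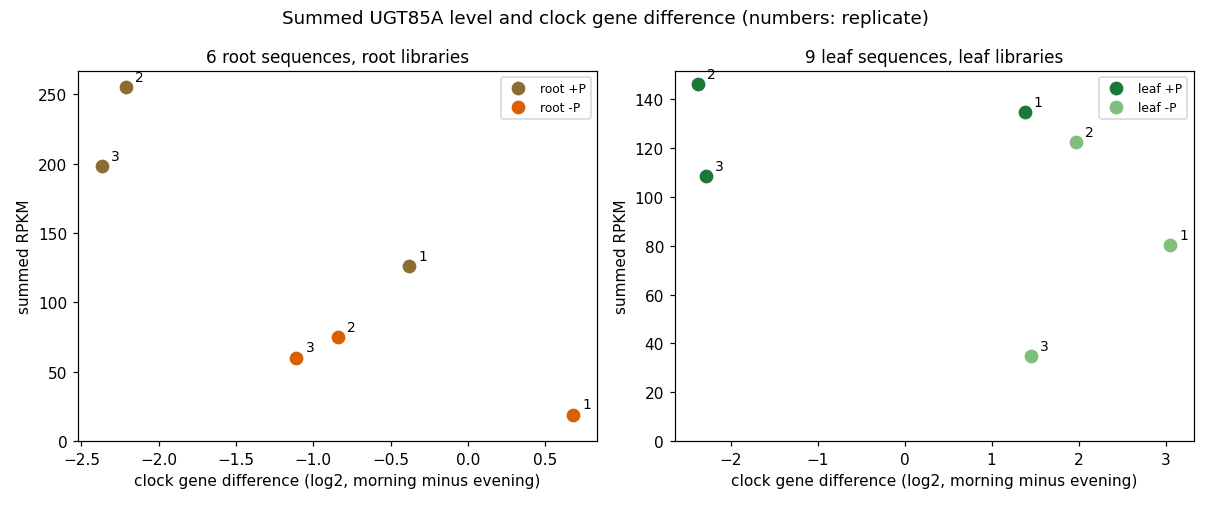
Summed RPKM of the 6 root sequences in the root libraries (left) and of the 9 leaf sequences in the leaf libraries (right) against the clock difference (log2, morning minus evening), with a point for each library, labelled by replicate number. In roots the library of highest clock difference has the lowest sum, 19.0 RPKM, and in leaves the lowest sum, 34.9 RPKM, belongs to a library with a clock difference of 1.45.

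Markers of each tissue were also compared between supplies. In leaves the 39 leaf marker sequences summed to 110223.1, 93935.0 and 92225.1 RPKM with sufficient phosphorus. With deficient phosphorus they summed to 109523.4, 69259.5 and 23034.4 RPKM, lowest in the library that stands apart. The list's median leaf change was -0.74, against -0.24 over all sequences, and none passed. Its part in the leaf changes of UGT85A was not tested. The 105 sequences of the root marker list summed to between 615.7 and 998.0 RPKM in sufficient roots and between 499.5 and 1023.7 RPKM in deficient roots. These ranges overlapped, and the list's median root change was -0.01, with 1 sequence higher and none lower. As single sequences this list marked roots weakly: with sufficient phosphorus, 22 were higher and 6 lower in roots than in leaves. Over all sequences, 24.1% were higher and 17.8% lower in that comparison. Of the 39 leaf marker sequences, 36 were lower and 3 higher in roots than in leaves with sufficient phosphorus. With deficient phosphorus 32 were lower and 3 higher, against 13.2% and 29% of all sequences. In roots, 17 of the 39 were at 0 in every sufficient and 14 in every deficient library.

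Other enzymes of glucoside metabolism were read from lists set by their annotation. For reference to every list below, 0.279% of all sequences passed in roots and 0.0276% in leaves. The median changes over all sequences were 0.0 and -0.24. Of 83 sequences of other UGT families, 1 rose and none fell in deficient roots, and none passed in leaves. The median change was -0.07 in roots and -0.20 in leaves. The one that rose was UGT74F1 (LAGI01_32837), whose Arabidopsis enzyme glucosylates salicylic acid. It had 0.1, 0.5 and 0.4 RPKM in sufficient roots and 2.7, 7.7 and 8.9 RPKM in deficient roots (log2 change 2.95, SE 0.417, limma adjusted p = 0.00283). Its direction was opposite to that of the root UGT85A sequences. UGT73B2 (LAGI01_69578), a flavonoid glucosyltransferase in Arabidopsis, had the next smallest p in roots, with 7.9, 17.2 and 14.7 RPKM against 1.8, 6.7 and 8.5 RPKM (log2 change -1.31, limma adjusted p = 0.804).

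In leaves the smallest p-values among these families belonged to GT72B1 (LAGI01_21426, log2 change -1.33, limma adjusted p = 0.416) and to UGT74B1 (LAGI01_43441, 1.51, limma adjusted p = 0.506), a glucosinolate enzyme in Arabidopsis. Of 46 further UDP-glucosyl transferases without a UGT symbol, none passed in either tissue. Among these, LAGI01_35908 had 6.5, 19.8 and 19.7 RPKM in sufficient leaves and 2.0, 3.9 and 0.3 RPKM in deficient leaves (log2 change -2.78, SE 0.551, limma adjusted p = 0.0936). Its groups did not overlap, deficient lower, as in 4.45% of all sequences.

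Beta-glucosidases remove glucose from glucosides. Of 137 such sequences, 2 fell in deficient roots, none rose there, and none passed in leaves, with median changes of -0.21 and -0.20. Over all sequences, 0.0345% passed as lower in roots, and the medians were 0.0 and -0.24. BGLU32 (LAGI01_66998) had 4.5, 7.1 and 5.4 RPKM in sufficient roots and 1.2, 1.3 and 0.7 RPKM in deficient roots (log2 change -1.98, SE 0.324, limma adjusted p = 0.00923). BGLU12 (LAGI01_54678) had 2.3, 4.2 and 4.4 RPKM and 0.3, 0.8 and 0.7 RPKM (log2 change -1.90, SE 0.357, limma adjusted p = 0.0284). In both, every deficient root library lay below every sufficient one, as for the 5 root UGT85A sequences and for 4.39% of all sequences.

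None of 58 sequences of cytokinin metabolism passed in roots or leaves, and their median change was 0.04 in roots and -0.30 in leaves. The smallest p-values in roots were those of ATIPT5 (LAGI01_50022), which makes cytokinins, and CKX3 (LAGI01_14410), which degrades them. ATIPT5 had 2.3, 4.6 and 1.8 RPKM in sufficient and 1.4, 0.6 and 0.3 RPKM in deficient roots (log2 change -1.43, limma adjusted p = 0.294). CKX3 had 1.4, 2.4 and 1.8 RPKM in sufficient and 3.5, 6.7 and 5.5 RPKM in deficient roots (log2 change 1.26, limma adjusted p = 0.445). ATIPT5 was lower in deficient roots, without overlap of the groups, and CKX3 was higher by mean, but neither change passed. Both were picked for the smallest p among the 58, and root groups without overlap, deficient lower, occurred in 4.39% of all sequences.

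None of 57 sequences of UDP-glucose supply passed in either tissue (median change 0.11 in roots and -0.12 in leaves). These enzymes, among them sucrose synthase and UDP-glucose pyrophosphorylase, provide the sugar donor. The smallest p in roots was that of SUS4 (LAGI01_94922), a sucrose synthase, with a log2 change of -1.49 (SE 0.716, limma adjusted p = 1). None of 21 sequences of hydroxynitrile metabolism passed either (median change -0.12 in roots and -0.33 in leaves). In leaves the smallest p there was that of LAGI01_20201, an HTH hit, with 13.4, 6.2 and 3.6 RPKM with sufficient and 12.9, 58.6 and 27.6 RPKM with deficient phosphorus (log2 change 1.95, SE 0.483, limma adjusted p = 0.207).

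Likeness of pattern was measured as Pearson's r of log2(RPKM + 0.5) over the 12 libraries, which share tissue, supply and replicate number. Both reference members below are near 0 in all 6 leaf libraries, so the contrast between tissues weighs heavily in r. The sequences with an informative description most like LAGI01_23842 were an S-locus protein kinase (LAGI01_10680, r = 0.997), a leucine-rich repeat protein kinase (LAGI01_10338, r = 0.997), an AAA-type ATPase (LAGI01_13553, r = 0.997), an alpha/beta hydrolase (LAGI01_58745, r = 0.996) and ALPHA-DOX1 (LAGI01_57407, r = 0.996). ALPHA-DOX1, a fatty acid dioxygenase, was the only one of these 5 near the level of LAGI01_23842, with means of 56.7 RPKM in sufficient and 15.0 RPKM in deficient roots (log2 change -2.06, limma adjusted p = 0.226). Within the family, LAGI01_33314 reached r = 0.997 and LAGI01_55919 r = 0.996 with LAGI01_23842.

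The same measure for LAGI01_55919, the member with the lowest root change, gave a RING zinc finger protein (LAGI01_70964, r = 0.998), the AAA-type ATPase again (r = 0.996), the transporter ATATH6 (LAGI01_10179, r = 0.995), the response regulator ARR18 (LAGI01_12950, r = 0.993) and a protein phosphatase 2C (LAGI01_12785, r = 0.993). ARR18, a transcription factor of the cytokinin response in Arabidopsis, had means of 7.0 RPKM in sufficient and 2.83 RPKM in deficient roots (log2 change -1.24, limma adjusted p = 0.288). None of the sequences outside the family that are named for likeness passed the test in roots.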

How the data were processed

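Per the labels' protocols, poly-A RNA of 12 samples was sequenced in single reads of 76 cycles. Bowtie is named in the submitters' processing notes, without a version or a role. The authors deposited 1 table of normalized values, here taken to be RPKM, and a text annotation of best hits. How reads were divided among near-identical sequences is not given in the sources used here. Counts, sequence lengths and the sequences themselves were not used here.

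Sequences that reached 1 RPKM in 3 or more libraries were tested as log2(RPKM + 0.5) with limma 3.58.1 (trended variance, R 4.3.3) in 4 group means over all 12 libraries. P-values were adjusted by Benjamini-Hochberg over all 87081 sequences, with a threshold of 0.05, and the code was tested on simulated data. A fold change on this scale understates the change of low sequences. The labels call the replicates biological and do not say whether each was 1 plant or a pool. In the labels, 1 field speaks of soil and another of solutions. No library pair was identical.

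Same-numbered libraries deviated together within roots (correlations 0.75, 0.4 and 0.64) and within leaves (0.24, 0.24 and 0.13). The blocked fit therefore treated numbers as pairs within a tissue. Sufficient root replicate 2, however, was most like deficient root replicate 3. Replicate 1 also differed from the others in having no barcodes, so shared deviations do not establish pairs, and calls under the block rest on that treatment. Between tissues not every correlation exceeded 0.1.

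All kept members may be named. In each list the 2 sequences with the smallest root p and the 2 with the smallest leaf p, and for likeness the 5 highest r per reference member, were eligible. Members and lists were chosen with earlier results of these data known. Alternatives covered the pseudocount, the filter, the scaling, the samples fitted, the block, the barcoded libraries, sums per description, each library left out, and a clock covariate that was chosen after seeing the data.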

Additional observations from a re-analysis of the deposited data

How the results depend on the processing

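The 3 members that passed in roots became 0 with a pseudocount of 0.1, 0 with median-of-ratios scaling, 0 when only the groups compared were fitted, 0 with values summed per description (5 descriptions tested), 1 in barcoded libraries and 5 with the replicate block within each tissue (4 with 1 replicate block for both tissues). Leaving out a library gave 0 to 3. Of all sequences, 30 passed as lower in roots as reported. That count was 11 with the pseudocount of 0.1, 61 with median-of-ratios scaling and 8 with only the groups compared. It was 7 with values summed per description, 205 in barcoded libraries, 165 with the block within each tissue and 57 with 1 block. The 0 that passed in leaves became 1 with median-of-ratios scaling, 1 with quantile normalization, 1 with the replicate block, 2 with the replicate block within each tissue and 3 in barcoded libraries, where leaf calls over all sequences rose from 24 to 5215, and leaving out a library gave 0 to 3. Of all sequences, 15 passed as lower in leaves as reported, and 40, 38, 138, 199 and 4583 in these 5 settings, in that order. For the difference between tissues, the 0 became 1 in barcoded libraries (LAGI01_31287, limma adjusted p = 0.047), where calls over all sequences rose from 52 to 1559. Summed per description, 4 of 5 descriptions passed between tissues with sufficient phosphorus (1 higher in roots and 3 lower). With deficient phosphorus 3 passed (0 higher and 3 lower). These are not like the counts of 15 and 14 sequences. A sum per description can join root and leaf sequences, since AtUGT85A2 and AtUGT85A3 hits occurred in both tissues, and opposite differences then offset each other. The block changed no other call. LAGI01_66851 passed in roots in 16 of 23 alternatives. No direction in roots reversed. With 1 library left out, leaf changes ran from -0.74 to 0.11 for LAGI01_18045, from -0.55 to 0.28 for LAGI01_70017 and from -0.25 to 0.89 for LAGI01_31056, and the difference between tissues from -0.11 to 0.74 for LAGI01_18045, from -0.05 to 0.74 for LAGI01_19132 and from -0.36 to 0.46 for LAGI01_70017.

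Leaf changes reversed for LAGI01_18045 (0.04 with quantile normalization, 0.11 without deficient leaf replicate 3), LAGI01_70017 (0.11 with median-of-ratios scaling, 0.24 with quantile normalization, 0.02 in barcoded libraries, 0.18 without sufficient leaf replicate 1, 0.28 without deficient leaf replicate 3) and LAGI01_31056 (-1.06 with the clock covariate, -0.07 without sufficient leaf replicate 2, -0.25 without deficient leaf replicate 1). The difference between tissues reversed for LAGI01_18045 (-0.04 and -0.11 under the same settings), LAGI01_19132 (-0.05 without deficient leaf replicate 3), LAGI01_31056 (0.23 with the clock covariate) and LAGI01_70017 (-0.14 with a pseudocount of 0.1, -0.19, -0.29, -0.15, -0.27 and -0.36 under the 5 settings given for it above). None of these passed in any setting, and the cause was not tested.

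Scaling moved the median leaf change of all sequences from -0.24 to -0.04 (median of ratios) and 0.03 (quantile). Over all sequences, calls ranged over the alternatives from 58 to 565 in roots (243 as reported), from 0 to 5215 in leaves (24), from 6 to 1559 for the difference (52), from 13653 to 44445 (36541) between tissues with sufficient and from 13062 to 43375 (36763) with deficient phosphorus. Leaf calls split 9 higher and 15 lower, and 13 and 40 with median-of-ratios scaling. Calls for the difference split 51 and 1, and 56 and 14. Without counts, what depth limits could not be computed, and a value of 0 is only a listed 0.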

Other observations

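Of 83 sequences of other families, 39 were higher and 13 lower in roots than in leaves with sufficient phosphorus (limma adjusted p below 0.05), where 24.1% of all sequences were higher and 17.8% lower. The median difference was 1.08 on the log2 scale, against 0.19 over all sequences. In UGT72, 15 of 21 sequences were higher in roots and none was lower. Of 13 UGT80 sequences, which are sterol glucosyltransferases, 1 was higher and none was lower. These counts depend on the filter as described for UGT85A, and no difference between families was tested.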
